A study of Mus musculus with 60 samples.

Results

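The 8 interferon regulatory factor (IRF) genes described here were measured across CD8 T cells with and without Sh2b3, at rest and after stimulation: Irf1, Irf2, Irf3, Irf4, Irf5, Irf7, Irf8 and Irf9. They are 8 of the 55414 genes in the count table, chosen by family name and found by Ensembl identifier (ENSMUSG00000018899, ENSMUSG00000031627, ENSMUSG00000003184, ENSMUSG00000021356, ENSMUSG00000029771, ENSMUSG00000025498, ENSMUSG00000041515, ENSMUSG00000002325, in the order above). The cells were naive splenic CD8 T cells, enriched by negative selection from NOD mice that carry the OT-I T cell receptor transgene. RNA was sequenced from 60 libraries in 10 groups. KO cells (Sh2b3-/-) lack, and WT cells (Sh2b3+/+) keep, Sh2b3, an adaptor protein that restrains cytokine receptor signalling. Cells were taken without stimulation at 0 h (11 libraries per genotype), or after 2 h, 6 h or 24 h with plate-bound anti-CD3 at 10 µg/mL and soluble anti-CD28 at 5 µg/mL (5 libraries per genotype and time). A further 4 KO and 4 WT libraries had 24 h of the same stimulation with blocking anti-IL-2 at 10 µg/mL. All groups thus share the NOD background and the OT-I receptor, 1 receptor specificity that was triggered here by antibody and not by antigen. Whether libraries of a group came from separate animals is not stated, so each p-value measures the spread between these libraries.

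The library names fall into 4 ranges of numbers, called library sets A to D here; what a set stands for is not stated. Set A holds all 2 h and 6 h libraries, sets B and C hold the 24 h libraries without anti-IL-2, and the 0 h libraries are spread over A, B and C. Set D holds all anti-IL-2 libraries and no others. Libraries held 13987029 to 35476519 counted reads. Sh2b3 ranged from 7.57 to 31.4 CPM (counts scaled to a common library size) in KO libraries, against 64.6 to 171 CPM in WT libraries. All 8 CD8 T cell markers were detected in every group, with a sum of 2200 to 6670 CPM. Markers of other cells had low sums, 6.96 to 84.2 CPM for B cells, 9.37 to 33 CPM for monocytes and macrophages, 11.9 to 178 CPM for conventional dendritic cells with MHC class II genes, and at most 4.27 CPM for neutrophils and 3.69 CPM for NK cells. CD4 and regulatory T cell markers summed to 4.33 to 26 CPM. Plasmacytoid dendritic cell markers had a sum of 65.6 to 454 CPM, highest at 0 h, with 225 to 433 CPM in KO cells and 233 to 454 CPM in WT cells. Of these 6 markers, 3 reached a mean of 1 CPM in each group. Siglech, a marker of that cell type, was at 0 in every 24 h library and in all WT libraries at 2 h and 6 h. It was not at 0 throughout the 0 h libraries of either genotype or the KO libraries at 2 h and 6 h. Klk1, another of the markers, was also at 0 in every 24 h library. The part of such cells in the IRF reads was not tested. In bulk RNA, fewer cells of a type and less RNA per cell cannot be told apart. KO 0 h replicate 10, KO 2 h replicate 3 and KO 6 h replicate 3, whose library names are 10 apart, lay farthest from the others of their group in set A, with root mean square log2 distances of 0.915, 0.785 and 0.853. The other KO libraries of these groups in set A lay at 0.565 to 0.739. The 3 that lay farthest had the highest CD4 and regulatory T cell sums of their groups, at 23.1, 26 and 16.3 CPM. The next highest sums were 16.1, 16.8 and 15.4 CPM. KO 0 h replicate 10 and KO 2 h replicate 3 also had the highest NK cell sums of their groups, but KO 6 h replicate 3 did not. The part of such cells in the reads of these libraries was not tested. Results that turn on these 3 libraries are given with and without them.

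IRF proteins share a DNA-binding domain and bind related sites, among them the interferon-stimulated response element (ISRE). Irf3 and Irf7 start type I interferon transcription after pathogen sensing, Irf9 is the DNA-binding subunit of the ISGF3 complex that answers interferon, and Irf1 is induced by interferon gamma and activates antigen presentation genes at sites that Irf2 also binds. In T cells, Irf4 is induced through the T cell receptor and binds DNA together with BATF and JUN proteins. Irf8, best known from myeloid cells and B cells, is also induced in activated CD8 T cells.

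The sequences before the start sites of Irf1, Irf4 and Irf8, the members on which most results below turn, are shown because their letters match sites of different factors. They come from RefSeq for GRCm38.p6, the upstream 1 of 2 listed promoters for Irf1 and Irf8, and are printed 5′ to 3′, with matches in capitals. The 5 motifs below were searched on both strands of the 250 bases before the start of 32544 promoters: ISRE (GAAA and GAAA with 2 bases between, in 2.98% of promoters), the STAT site GAS (TTCNNNGAA, 7.04%), AP-1 (TGANTCA, 6.73%), the TATA box (TATAAA, 12.3%) and the kappaB site (7.28%). Irf1, at chr11:53769764-53770013 on the plus strand, held a GAS match at -90 to -82 from the start and a kappaB match at -13 to -4. Irf4, at chr13:30748983-30749225 on the plus strand, held a TATA box at -26 to -21, and its sequence ends at -8. Irf8, at chr8:120736108-120736357 on the plus strand, held 2 GAS matches, at -171 to -163 and -153 to -145, and a TATA box at -31 to -26.
Irf1: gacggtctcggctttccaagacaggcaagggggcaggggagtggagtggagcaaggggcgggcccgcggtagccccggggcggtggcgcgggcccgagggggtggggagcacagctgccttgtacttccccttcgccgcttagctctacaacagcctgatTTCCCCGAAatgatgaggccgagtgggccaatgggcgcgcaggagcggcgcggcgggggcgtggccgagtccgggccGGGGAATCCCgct
Irf4: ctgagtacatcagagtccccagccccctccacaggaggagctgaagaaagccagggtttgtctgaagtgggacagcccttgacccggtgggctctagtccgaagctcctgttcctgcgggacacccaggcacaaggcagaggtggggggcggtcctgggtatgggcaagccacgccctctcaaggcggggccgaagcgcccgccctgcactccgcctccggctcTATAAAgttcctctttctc
Irf8: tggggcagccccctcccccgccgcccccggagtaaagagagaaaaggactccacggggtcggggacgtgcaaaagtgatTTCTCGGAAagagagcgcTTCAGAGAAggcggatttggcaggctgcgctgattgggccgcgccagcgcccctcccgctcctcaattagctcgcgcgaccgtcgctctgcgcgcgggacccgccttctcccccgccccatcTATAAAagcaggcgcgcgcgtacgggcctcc
All 8 members were matched by symbol, to 11 promoters. Among the others, Irf2 held an ISRE at -241 to -232, a GAS at -224 to -216 and a kappaB site at -17 to -8. Irf7 held a TATA box at -29 to -24, and Irf3, Irf5 and Irf9 held none of these letters in the window. No match overlapped a match to another motif. A match is a description of the sequence and not a measured binding site.

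Stimulation changed which IRF gene made up most of the family's RNA. Levels of different genes are compared per length, as CPM per kilobase of exon. At 0 h, Irf7 made up 32.6% ± 3.51 of the summed level of the 8 genes in KO cells and 29.1% ± 6.79 in WT cells (SD, n = 11 each). Irf1 made up 31.2% ± 4.96 in KO cells and 31.5% ± 2.68 in WT cells. By group mean, these 2 genes led in resting cells of both genotypes, while Irf4 and Irf8 ranked above Irf5 alone. Irf4 made up 1.25% ± 0.953 in KO cells and 1.23% ± 0.484 in WT cells at 0 h, and 40.8% ± 9.63 in KO cells and 55% ± 6.32 in WT cells at 2 h (SD, n = 5 each). Irf4 also had the highest mean share in every other stimulated group, but it did not lead in every library. Per kilobase, Irf1 lay above Irf4 in KO 2 h replicate 5, KO 6 h replicate 5, KO 24 h replicate 2 and WT 24 h replicate 1. Irf8 made up 0.332% ± 0.116 in KO cells and 0.252% ± 0.0964 in WT cells at 0 h, and 18.9% ± 3.95 in KO cells and 11.1% ± 6.31 in WT cells at 24 h. Irf5 had the lowest mean share in all 10 groups, at 1.25% ± 0.273 or less.

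**Figure D1:**
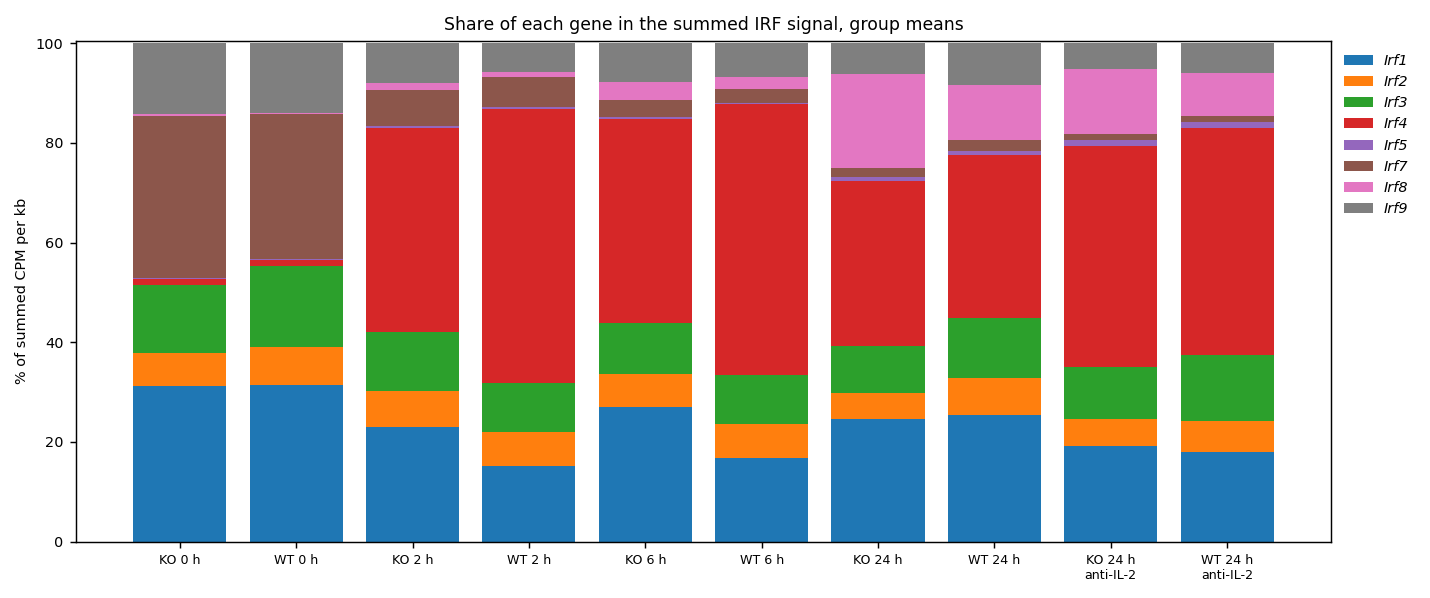
Stacked bars give the mean share (%, y axis) of each gene in the summed CPM per kilobase of the 8 IRF genes, for each of the 10 groups (x axis). Irf7 and Irf1 fill most of the 0 h bars, Irf4 is the largest block in the stimulated groups, and Irf8 grows to 18.9% in KO and 11.1% in WT cells at 24 h.

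Irf4, which T cells need for effector differentiation, rose by 2 h in both genotypes and was still high at 24 h. At 0 h its lowest, median and highest level was 2.62, 9.5 and 39.9 CPM in KO cells and 2.99, 9.93 and 18.8 CPM in WT cells. At 2 h it had 675, 586, 660, 548 and 245 CPM in KO cells and 860, 880, 891, 826 and 582 CPM in WT cells. At 6 h it had 339, 863, 1014, 720 and 337 CPM in KO cells and 645, 586, 880, 844 and 765 CPM in WT cells. Every stimulated library lay above every resting one, and the KO libraries were more spread than the WT libraries at 2 h and 6 h. At 24 h it had 509, 282, 458, 546 and 375 CPM in KO cells and 265, 317, 264, 434 and 427 CPM in WT cells. All adjusted p below are from edgeR's quasi-likelihood test adjusted over every gene tested by Benjamini-Hochberg, unless another tool is named, with the library set as a term where groups share sets. At 2 h against 0 h the log2 difference was 4.63 ± 0.42 (SE) in KO cells (adjusted p = 6.8e-07) and 5.49 ± 0.14 in WT cells (adjusted p = 2e-18). These are rises of 24.7-fold in KO cells and 44.9-fold in WT cells. At 24 h against 0 h the difference was 6.12 ± 0.40 in KO cells (adjusted p = 8.3e-09) and 5.59 ± 0.25 in WT cells (adjusted p = 8.1e-12). In set B alone it was 6.63 in KO cells and 6.69 in WT cells, and in set C alone 5.83 in KO cells and 5.04 in WT cells. Without the library set as a term it was 5.10 in KO cells and 4.90 in WT cells, and all of these were called. The 2 h and 24 h differences rest on other resting levels. Mean Irf4 at 0 h was 21.9 CPM in KO and 17.9 CPM in WT cells in set A, 5.12 and 4.4 CPM in set B, and 7.6 and 8.74 CPM in set C. Mean Irf4 was lower at 24 h than at 2 h, at 434 against 543 CPM in KO cells and 341 against 808 CPM in WT cells. The 6 h and 2 h groups were not told apart by the test, at 0.34 ± 0.35 in KO cells and -0.08 ± 0.13 in WT cells (adjusted p = 0.49 and 0.64).

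Irf8 was higher at 2 h, higher again at 6 h and highest at 24 h. At 0 h its lowest, median and highest level was 1.49, 5.01 and 9.24 CPM in KO cells and 1.73, 3.37 and 5.79 CPM in WT cells. At 2 h it had 18.7, 30, 43.5, 16.8 and 17.9 CPM in KO cells and 32.7, 19, 18.1, 18.3 and 20.9 CPM in WT cells. At 6 h it had 21.6, 93.3, 259, 58.6 and 40.7 CPM in KO cells and 41.1, 32.6, 60.4, 47.9 and 47.8 CPM in WT cells. All 2 h libraries lay above all 0 h libraries, the 2 h and 6 h libraries overlapped, and replicate 3 was the highest KO library at both times. The log2 difference at 2 h against 0 h was 2.05 ± 0.33 in KO cells (adjusted p = 4.1e-05) and 2.51 ± 0.29 in WT cells (adjusted p = 1.6e-07). At 6 h against 0 h it was 3.98 ± 0.63 in KO cells (adjusted p = 0.00018) and 3.64 ± 0.30 in WT cells (adjusted p = 1.6e-08). Without the 3 KO libraries that stood apart, the KO differences were 1.99 at 2 h and 3.37 at 6 h, both still called, and without KO 6 h replicate 3 alone the 6 h value was 3.16. At 6 h against 2 h Irf8 was 1.96 ± 0.60 higher in KO cells (adjusted p = 0.028) and 1.12 ± 0.18 higher in WT cells (adjusted p = 8.1e-05). The KO call was lost without KO 2 h replicate 1, 2, 4 or 5 or KO 6 h replicate 2 or 3 (adjusted p of 0.05 to 0.069), and the difference was 1.15 without KO 6 h replicate 3. It was 1.43 without the 3 libraries that stood apart (adjusted p = 0.016). With no filter on low counts it was not called (1.95, adjusted p = 0.12).

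At 24 h against 0 h Irf8 was 6.45 ± 0.33 higher in KO cells (adjusted p = 1.9e-10) and 5.43 ± 0.48 higher in WT cells (adjusted p = 2.7e-07). These are rises of 87.4-fold in KO cells and 43.2-fold in WT cells. In set B alone the log2 difference of Irf8 was 7.22 in KO cells and 7.31 in WT cells, and in set C alone 6.03 in KO cells and 4.52 in WT cells. The ratio of Irf4 to Irf8, both per kilobase, is given within a set. In set A its median was 4.44 at 0 h, 28.1 at 2 h and 13.3 at 6 h in KO cells, and 6.7, 65.1 and 23.1 at these times in WT cells. In set B it was 1.64 at 24 h and 2.4 at 0 h in KO cells, and 2.03 at 24 h and 3.31 at 0 h in WT cells. For set C the medians were 2.04 at 24 h and 2.17 at 0 h in KO cells, and 4.71 at 24 h and 3.59 at 0 h in WT cells. The median was highest at 2 h, and at 24 h it was below the resting median of its set except in set C of WT cells. The 24 h and 0 h libraries overlapped in both sets of WT cells and in set C of KO cells. They were apart in set B of KO cells, with 2 libraries at each time.

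**Figure D2:**
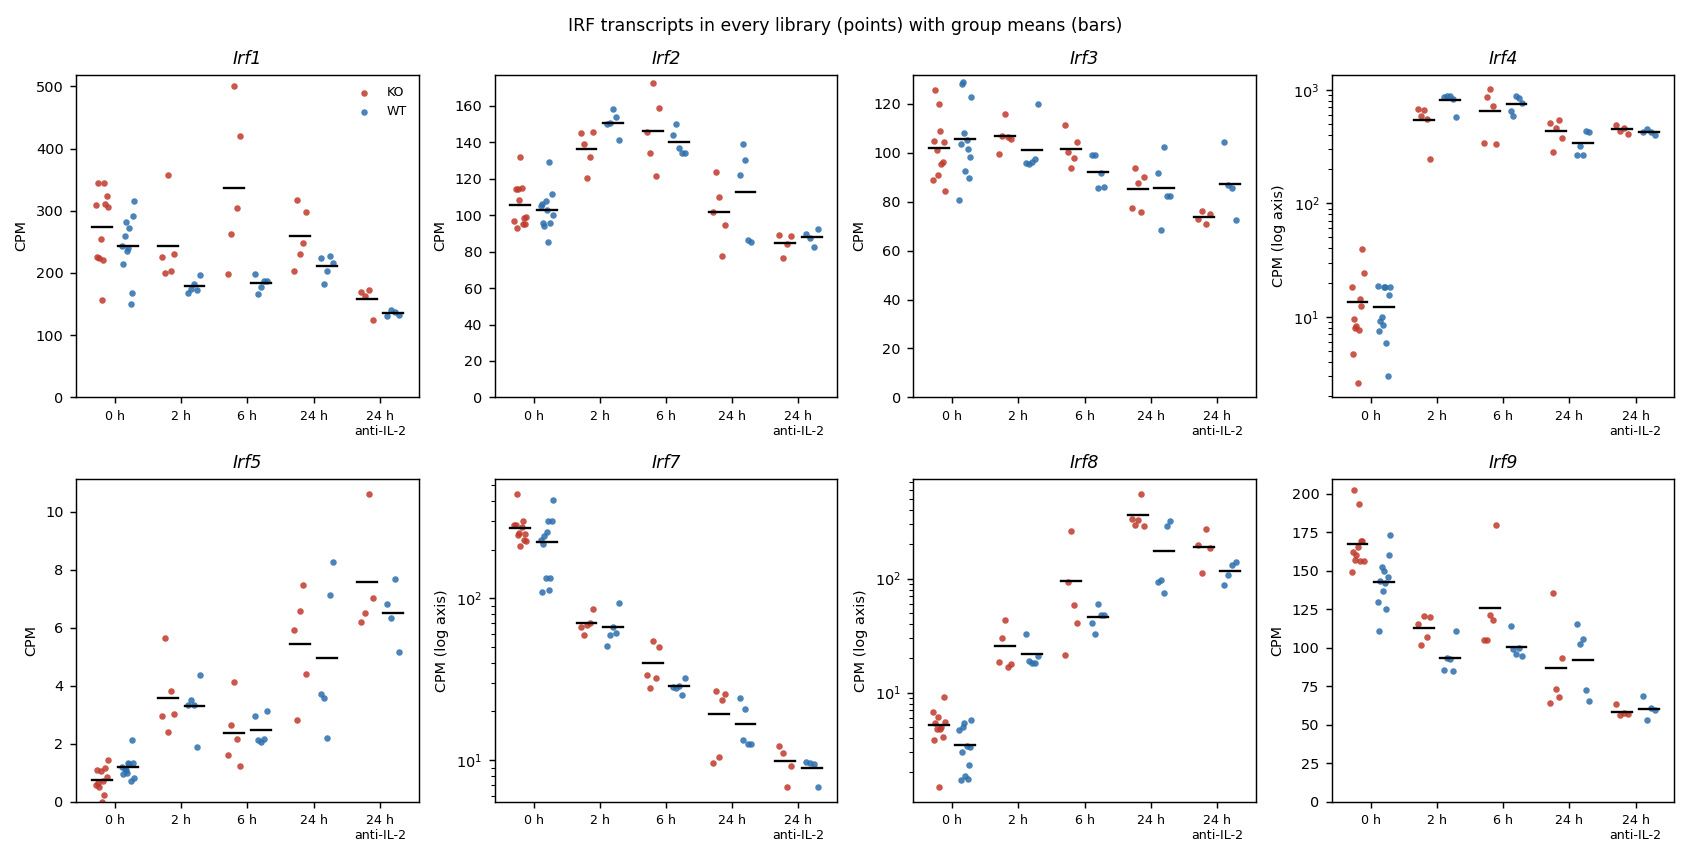
Each panel plots the CPM of an IRF gene (y axis, log scale for Irf4, Irf7 and Irf8) by time and antibody (x axis), with a point per library, KO left of WT, and a bar at each group mean. Irf4 is high by 2 h, Irf8 is highest at 24 h, Irf7 is lowest in the 24 h groups, and Irf1 of KO libraries lies above WT at 2 h and 6 h.

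Irf7 and Irf9, the members of the interferon response, went the other way. Irf7 had a lowest, median and highest level of 210, 253 and 444 CPM in KO cells and 109, 230 and 406 CPM in WT cells at 0 h. In KO cells it ranged over 59.6 to 85.5 CPM at 2 h, 28.1 to 54.8 CPM at 6 h and 9.54 to 26.9 CPM at 24 h. WT cells had 50.5 to 92.9 CPM at 2 h, 25.3 to 32.3 CPM at 6 h and 12.5 to 24.1 CPM at 24 h. No 2 successive times overlapped in either genotype. Irf7 fell by 1.87 ± 0.15 at 2 h, 2.67 ± 0.20 at 6 h and 3.85 ± 0.30 at 24 h on the log2 scale in KO cells (adjusted p = 2e-08, 2.4e-08 and 2.4e-08). WT cells showed falls of 2.19 ± 0.25, 3.34 ± 0.24 and 3.17 ± 0.23 (adjusted p = 4.5e-06, 4e-08 and 3.3e-09). The 24 h values set 24 h libraries against 0 h libraries of their own sets, and the KO value in set B alone was -3.21 (adjusted p = 3.5e-06). At 6 h against 2 h Irf7 fell by 0.76 ± 0.18 in KO cells (adjusted p = 0.0082) and 1.17 ± 0.13 in WT cells (adjusted p = 2.7e-07).

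Irf9 fell less. It averaged 167 ± 16.3 CPM in KO cells and 143 ± 17.1 CPM in WT cells at 0 h (SD, n = 11 each). At 2 h it had 115, 102, 121, 107 and 120 CPM in KO cells and 85.4, 93, 92.7, 84.5 and 111 CPM in WT cells, and at 24 h 64.1, 135.49, 73.3, 67.7 and 93.1 CPM in KO cells and 115, 102, 106, 72.3 and 65.2 CPM in WT cells. Irf9 fell by 0.50 ± 0.08 at 2 h and 0.92 ± 0.15 at 24 h in KO cells (adjusted p = 1.2e-05 and 1.5e-05). The WT falls were 0.70 ± 0.09 at 2 h, 0.54 ± 0.08 at 6 h and 0.52 ± 0.11 at 24 h (adjusted p = 7e-08, 2e-06 and 0.00027). The size of the WT fall at 24 h depended on the set. WT cells averaged 68.8 CPM at 24 h against 135.67 CPM at 0 h in set B, and 107.57 CPM against 135.74 CPM in set C. Over the alternatives the WT difference at 24 h ran from -0.90 to -0.31. The 6 h fall in KO cells was 0.32 ± 0.12 (adjusted p = 0.041) and was not called without KO 0 h replicate 10 or KO 6 h replicate 1, 2, 3 or 4 (adjusted p of 0.058 to 0.11), nor without the 3 libraries that stood apart (-0.29, adjusted p = 0.099). Nor was it called with DESeq2's size factors or in set A alone (adjusted p = 0.051 and 0.074). In WT cells, 6 h against 2 h was called without WT 2 h replicate 5 (0.21, adjusted p = 0.028) and not with it (0.15 ± 0.08, adjusted p = 0.13).

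Irf3, which is present in resting cells and is switched on by phosphorylation, moved little. It averaged 102 ± 12.7 CPM in KO cells and 105 ± 15.7 CPM in WT cells at 0 h (SD, n = 11 each), and 85 ± 8.05 CPM in KO cells and 85.4 ± 12.6 CPM in WT cells at 24 h (SD, n = 5 each). It fell at 24 h by 0.28 ± 0.09 in KO cells (adjusted p = 0.013) and 0.30 ± 0.11 in WT cells (adjusted p = 0.026). Both calls depended on the setting. The KO call was lost in set B alone (-0.36, adjusted p = 0.1), in set C alone (-0.24, adjusted p = 0.11) and without the library set as a term (-0.17, adjusted p = 0.11). The WT call was lost in set B alone (-0.14, adjusted p = 0.32), without the library set as a term (-0.24, adjusted p = 0.069) and without WT 24 h replicate 2 (-0.20, adjusted p = 0.11). At 2 h the difference was 0.19 ± 0.08 in KO cells (adjusted p = 0.051) and 0.01 ± 0.09 in WT cells (adjusted p = 0.96). The KO value passed the test without KO 0 h replicate 10 (0.24, adjusted p = 0.021), without KO 2 h replicate 1 (0.22, adjusted p = 0.042) and without the 3 libraries that stood apart (0.21, adjusted p = 0.045). It also passed in set A alone, by the DESeq2 Wald test and with DESeq2's size factors (adjusted p = 0.047, 0.048 and 0.045).

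Irf1 fell and Irf2 rose at 2 h, 2 factors that bind the same sites, where Irf2 is known to oppose Irf1. Irf1 had a lowest, median and highest level of 157.17, 306 and 345 CPM in KO cells and 150, 244 and 315 CPM in WT cells at 0 h. At 2 h it had 226, 200, 358, 204 and 231 CPM in KO cells and 168, 174, 182, 172 and 196 CPM in WT cells, each overlapping its 0 h group over all sets. The 2 h libraries are all of set A, where the 0 h libraries had 306 to 345 CPM in KO and 240 to 315 CPM in WT cells. Within set A all 2 h libraries except KO 2 h replicate 3 lay below the 0 h libraries of their genotype. In KO cells Irf1 fell by 0.38 ± 0.15 at 2 h (adjusted p = 0.042) and was at 0.11 ± 0.20 at 6 h (adjusted p = 0.67). It fell by 0.62 ± 0.08 at 2 h and 0.53 ± 0.08 at 6 h in WT cells (adjusted p = 4.7e-08 and 1.3e-06). The KO call at 2 h was lost without KO 0 h replicate 10 or KO 2 h replicate 1, 2, 4 or 5 (adjusted p of 0.071 to 0.1) and was held without the 3 libraries that stood apart (-0.55, adjusted p = 4e-04). It was also lost without the library set as a term (-0.18, adjusted p = 0.37), with no filter on low counts and with DESeq2's size factors (adjusted p = 0.13 and 0.053). The KO difference between 6 h and 2 h was 0.53 ± 0.24 (adjusted p = 0.11). It was called without KO 2 h replicate 3 (0.72, adjusted p = 0.035), without KO 6 h replicate 1 (0.68, adjusted p = 0.034) and without the 3 libraries (0.53, adjusted p = 0.046). At 24 h against 0 h Irf1 was at 0.23 ± 0.14 in KO cells and 0.05 ± 0.13 in WT cells (adjusted p = 0.16 and 0.77). The value differed by set. In set B alone, it was 0.63 in KO cells and 0.57 in WT cells (adjusted p = 0.025 and 2e-04), and in set C alone -0.02 in KO cells and -0.26 in WT cells (adjusted p = 0.94 and 0.054). Irf1 in WT cells averaged 222 CPM at 24 h against 158.44 CPM at 0 h in set B, and 203 CPM against 248 CPM in set C.

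Irf2 averaged 106 ± 12.2 CPM in KO cells and 103 ± 11.4 CPM in WT cells at 0 h (SD, n = 11 each), and 136.42 ± 10.5 CPM in KO cells and 151 ± 6.31 CPM in WT cells at 2 h (SD, n = 5 each). It rose at 2 h by 0.50 ± 0.08 in KO cells (adjusted p = 9.4e-06) and 0.57 ± 0.08 in WT cells (adjusted p = 1.6e-07). At 6 h it was still higher than at 0 h, by 0.63 ± 0.10 in KO cells (adjusted p = 3.7e-05) and 0.52 ± 0.08 in WT cells (adjusted p = 1.3e-06). At 24 h Irf2 was called in neither genotype, at -0.08 ± 0.10 in KO cells and 0.14 ± 0.11 in WT cells (adjusted p = 0.53 and 0.29). Both values turned with the set: in set B alone, it was -0.42 in KO cells and -0.31 in WT cells (adjusted p = 0.074 and 0.06), and in set C alone 0.11 in KO cells and 0.40 in WT cells (adjusted p = 0.45 and 0.0019). The ratio of Irf1 to Irf2, both per kilobase, had a median in set A of 5.94 at 0 h, 2.89 at 2 h and 4.67 at 6 h in KO cells, and 4.86, 2.14 and 2.56 in WT cells. At 24 h against 0 h the medians were higher in set B and lower in set C, where the KO libraries overlapped. Set B medians were 5.91 at 24 h and 2.9 at 0 h in KO cells, and 4.82 at 24 h and 2.7 at 0 h in WT cells. Set C medians were 3.88 at 24 h and 4.02 at 0 h in KO cells, and 2.89 at 24 h and 4.54 at 0 h in WT cells.

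Irf5, known from Toll-like receptor signalling in myeloid cells and B cells, was near the limit of detection at rest. It averaged 0.749 ± 0.426 CPM in KO cells and 1.18 ± 0.376 CPM in WT cells at 0 h (SD, n = 11 each), from 0 to 24 reads per KO library and 12 to 37 reads per WT library. At 24 h it had 5.92, 2.81, 6.59, 7.47 and 4.4 CPM in KO cells and 3.7, 3.58, 2.19, 7.12 and 8.27 CPM in WT cells, all above the resting libraries of the same genotype. Irf5 rose at 2 h by 2.07 ± 0.56 in KO cells (adjusted p = 0.0033) and 1.44 ± 0.35 in WT cells (adjusted p = 7e-04). It was higher at 24 h than at 0 h by 3.23 ± 0.59 in KO cells (adjusted p = 7.3e-05) and 1.96 ± 0.34 in WT cells (adjusted p = 3.6e-05). In set B alone it was 4.25 in KO cells and 2.52 in WT cells, and in set C alone 2.71 in KO cells and 1.62 in WT cells, all called. WT libraries at 24 h had 7.12 to 8.27 CPM in set B and 2.19 to 3.7 CPM in set C. At 6 h it was at 1.49 ± 0.62 in KO cells (adjusted p = 0.057), and was called without KO 6 h replicate 5 (1.66, adjusted p = 0.042), in set A alone (1.49, adjusted p = 0.025), without the library set as a term (1.68, adjusted p = 0.0084) and by the DESeq2 Wald test (1.51, adjusted p = 0.023). The 6 h difference was called in WT cells (1.09 ± 0.38, adjusted p = 0.015), but not with no filter on low counts (adjusted p = 0.057). For 6 h against 2 h the KO difference was -0.53 ± 0.35 (adjusted p = 0.26), and -0.93 without the 3 libraries that stood apart (adjusted p = 0.044). The summed B cell markers had a median of 35 CPM at 0 h, 10.8 CPM at 2 h, 15.5 CPM at 6 h and 27.5 CPM at 24 h in KO cells, and 34.1, 12.8, 16.9 and 25.4 CPM in WT cells. The part of other cells in the Irf5 reads was not tested.

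Counted over the family, 4 of 8 members were called higher and 3 lower at 2 h against 0 h in KO cells, where 57.6% of all genes tested were called, 28.4% higher and 29.2% lower. In WT cells 4 were higher and 3 lower at 2 h, where 63.6% of all genes tested were called, 30.3% higher and 33.3% lower. At 6 h, 3 were higher and 2 lower in KO cells, where 46.3% of all genes tested were called, 23.2% higher and 23.1% lower. The WT count at 6 h was 4 higher and 3 lower, where 56.7% of all genes tested were called, 28.5% higher and 28.2% lower. At 24 h, 3 were higher and 3 lower in KO cells, where 60.8% of all genes tested were called, 30.5% higher and 30.3% lower. The WT count at 24 h was 3 higher and 3 lower, where 59.3% of all genes tested were called, 29.2% higher and 30.1% lower. Between 6 h and 2 h, 1 member was higher and 1 lower at 6 h in KO cells, where 34.2% of all genes tested were called, 18.1% higher and 16.1% lower. In WT cells too 1 was higher and 1 lower, where 47.2% of all genes tested were called, 23.6% higher and 23.7% lower. Since a large share of all genes was called, no count is read as particular to the family. The 2 h, 6 h and 24 h comparisons within a genotype share 0 h libraries.

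**Figure D3:**
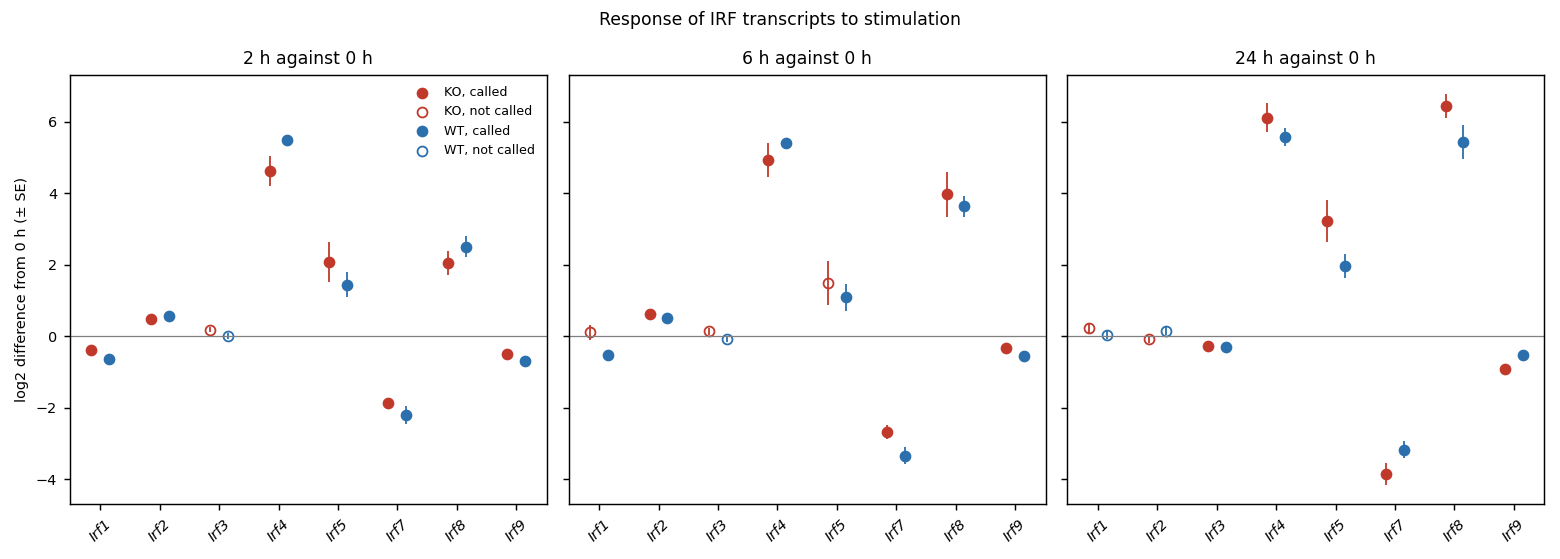
The log2 difference from 0 h (y axis, with SE bars) is plotted for each IRF gene at 2 h, 6 h and 24 h, KO left of WT, with filled points for differences that passed the test. Irf4 and Irf8 lie highest and Irf7 lowest, and Irf8 at 24 h is at 6.45 in KO and 5.43 in WT cells.

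Between genotypes, no IRF gene passed edgeR's test with the filter on low counts and all libraries in any of the 5 conditions. The count was 0 of 8 members in each. At 0 h 0.633% of all genes tested were called, 0.328% higher and 0.305% lower in KO cells, and at 2 h 0.0647% of all genes tested were called, 0.0323% higher and 0.0323% lower. At 6 h 0.0306% of all genes tested were called, 0.0153% higher and 0.0153% lower, and at 24 h 0.372% of all genes tested were called, 0.225% higher and 0.147% lower. Among cells with anti-IL-2 0.35% of all genes tested were called, 0.201% higher and 0.149% lower. At an unadjusted p under 0.05 there were 3, 4, 3, 3 and 3 of 8 members, in the order 0 h, 2 h, 6 h, 24 h, anti-IL-2. The DESeq2 Wald test called 1 member at 0 h (Irf9), 1 at 6 h (Irf1) and 1 at 24 h (Irf8), while it called 0 at 2 h and 0 under anti-IL-2. With no filter on low counts, edgeR's test called Irf7 and Irf9 at 0 h (adjusted p = 2.4e-09 and 0.0034, against 0.52 and 0.091 with the filter). It then also called Irf4 and Irf8 at 24 h (adjusted p = 0.023 and 1.9e-29, against 0.36 and 0.065 with the filter). The fit with no filter takes the spread from all genes with a read, also those with very few. The smaller p are therefore not read as stronger evidence, and the cause of the gap was not tested. Calls over all genes ran from 6 to 477 at 0 h and from 3 to 362 at 24 h over the alternatives. The median log2 difference of the 8 members, KO minus WT, was 0.14, 0.10, 0.21, 0.22 and 0.11 in the same order, against 0.00, 0.01, 0.00, 0.00 and 0.00 over all genes tested.

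Irf1 was the 1 member whose KO libraries all lay above the WT libraries at 2 h and at 6 h, and this held in no other condition or member. The 2 h values are given above. At 6 h it had 199, 263, 500, 304 and 421 CPM in KO cells and 199, 166, 177, 188 and 187 CPM in WT cells, where the lowest KO and highest WT values differ before rounding. Groups without overlap were seen for 2.44% of all genes tested at 2 h and 1.29% at 6 h. The log2 difference was 0.45 ± 0.14 at 2 h (adjusted p = 0.25) and 0.86 ± 0.20 at 6 h (adjusted p = 0.52). It was 0.17 ± 0.07 at 0 h, 0.29 ± 0.12 at 24 h and, under anti-IL-2, 0.22 ± 0.09 (adjusted p = 0.37, 0.35 and 0.44). Without KO 2 h replicate 3 the 2 h difference was 0.27, and the 6 h difference was 0.68 without KO 6 h replicate 3. The DESeq2 Wald test gave 0.87 at 6 h (adjusted p = 0.019). Over all alternatives for 6 h the difference ran from 0.68 to 1.01 and the adjusted p from 0.019 to 1.

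**Figure D4:**
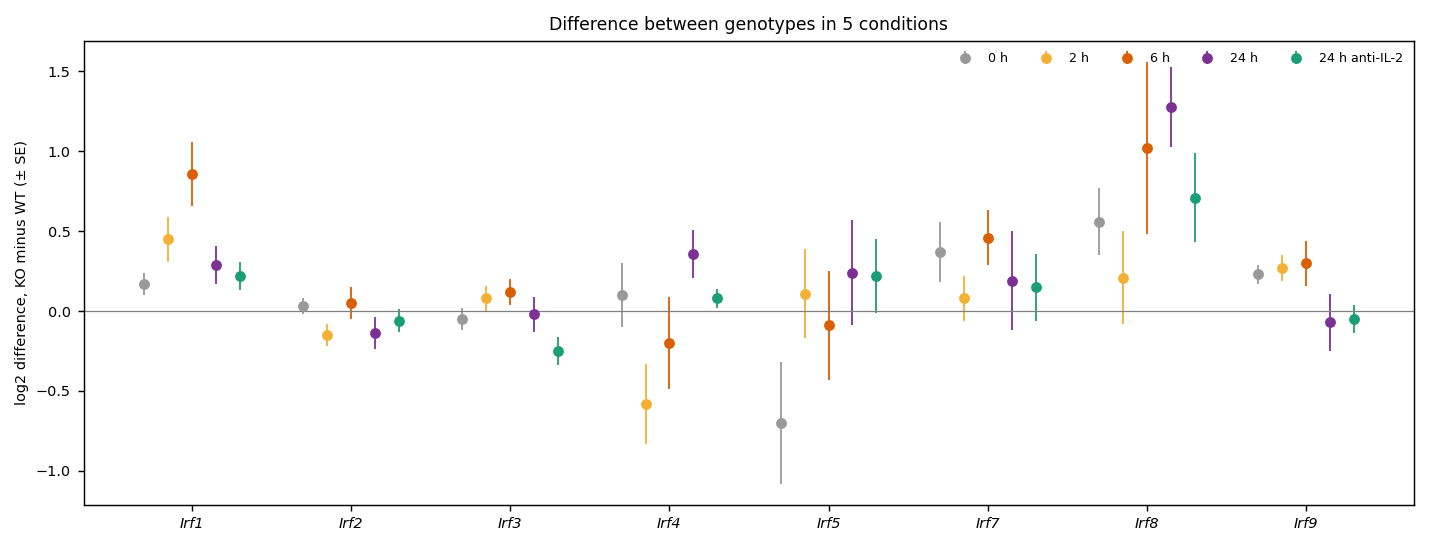
Points give the log2 difference KO minus WT (y axis, with SE bars) of each IRF gene in the 5 conditions. Irf1, Irf7 and Irf8 lie above 0 in all 5, the highest point is Irf8 at 24 h, at 1.28, and no point passed the test.

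Irf8 differed most between genotypes at 24 h, by a size that depended on the library set. In set C it had 334, 298 and 324 CPM in KO libraries and 93.6, 96.9 and 74.3 CPM in WT libraries. In set B it had 556 and 289 CPM in KO libraries and 289 and 322 CPM in WT libraries. The genotypes were apart in set C and overlapped in set B. Over both sets the log2 difference was 1.28 ± 0.25 (adjusted p = 0.065), in set C alone 1.84 (adjusted p = 5.9e-06) and in set B alone 0.46 (adjusted p = 1). It was called without WT 24 h replicate 5 (1.41, adjusted p = 0.045) or KO 24 h replicate 5 (1.55, adjusted p = 5.6e-05), both of set B, and by the DESeq2 Wald test (1.29, adjusted p = 0.0042). Of cells that express Irf8 strongly, B cell markers summed to 16.5 to 57.7 CPM in KO cells and 16.2 to 84.2 CPM in WT cells at 24 h. Conventional dendritic cell and MHC class II genes summed to 48.9 to 114 CPM in KO cells and 53.6 to 178 CPM in WT cells, with Clec9a and Cd209a at 0 in all. In the 3 WT libraries of set C, the B cell sum was 25.4 to 84.2 CPM, and in the 2 of set B 16.2 to 22.5 CPM. The part of other cells in the Irf8 reads was not tested. At 6 h the Irf8 difference was 1.02 ± 0.54 (adjusted p = 0.91), and 0.20 without KO 6 h replicate 3. At 0 h it was 0.56 ± 0.21 (adjusted p = 0.29).

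The interferon members and Irf4 differed less between genotypes. Irf9 at 0 h ranged over 149 to 202 CPM in KO cells and 111 to 173 CPM in WT cells, with a log2 difference of 0.23 ± 0.06 (adjusted p = 0.091) and, by the DESeq2 Wald test, 0.23 (adjusted p = 0.036). Irf7 at 0 h was at 0.37 ± 0.19 (adjusted p = 0.52). By library set the Irf7 difference was -0.20 in A, 0.99 in B, with 2 libraries per genotype, and 0.80 in C (adjusted p = 1, 0.0068 and 0.43), with another sign in A. Irf4 was at -0.58 ± 0.25 at 2 h and 0.36 ± 0.15 at 24 h (adjusted p = 0.36 and 0.36). Irf3 with anti-IL-2 was at -0.25 ± 0.09 (adjusted p = 0.4), and Irf5 at 0 h at -0.70 ± 0.38 (adjusted p = 0.53). Irf2 was at -0.15 ± 0.07 at 2 h (adjusted p = 0.37).

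With anti-IL-2, Irf1 was lower in both genotypes. In KO cells it had 169, 163, 173 and 124 CPM with anti-IL-2, against 202, 318, 230, 249 and 297 CPM without. In WT cells it had 131.58, 141, 137.02 and 132.16 CPM with anti-IL-2, against 224, 182, 203, 228 and 217 CPM without. The groups did not overlap in either genotype, as for 10.4% of all genes tested in KO cells and 11.3% in WT cells. Irf1 fell by 0.72 ± 0.14 in KO cells (adjusted p = 0.011) and by 0.64 ± 0.09 in WT cells (adjusted p = 0.0032). The KO call was lost without KO 24 h anti-IL-2 replicate 4 (-0.62, adjusted p = 0.052). Against set B alone the difference was -0.79 in KO cells and -0.71 in WT cells, and against set C alone -0.68 in KO cells and -0.62 in WT cells. All anti-IL-2 libraries are of set D, so the antibody and the set cannot be told apart, here and in all values with anti-IL-2 below.

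Irf8 had 196, 112, 270 and 184 CPM with anti-IL-2 in KO cells, all below the 289 to 556 CPM without. In WT cells it had 87.3, 107, 130 and 139 CPM with anti-IL-2, against 74.3 to 96.9 CPM in set C and 289 to 322 CPM in set B without. Irf8 fell by 0.92 ± 0.23 in KO cells (adjusted p = 0.034). That call was lost without KO 24 h replicate 1 or 3, or KO 24 h anti-IL-2 replicate 1, 2 or 4 (adjusted p of 0.055 to 0.12), against set B alone (-1.14, adjusted p = 0.22) and with no filter on low counts (-0.92, adjusted p = 0.18). In WT cells the difference was -0.59 ± 0.40 (adjusted p = 0.44), and it turned with the set, at -1.39 against set B and 0.36 against set C (adjusted p = 0.0014 and 0.069).

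**Figure D5:**
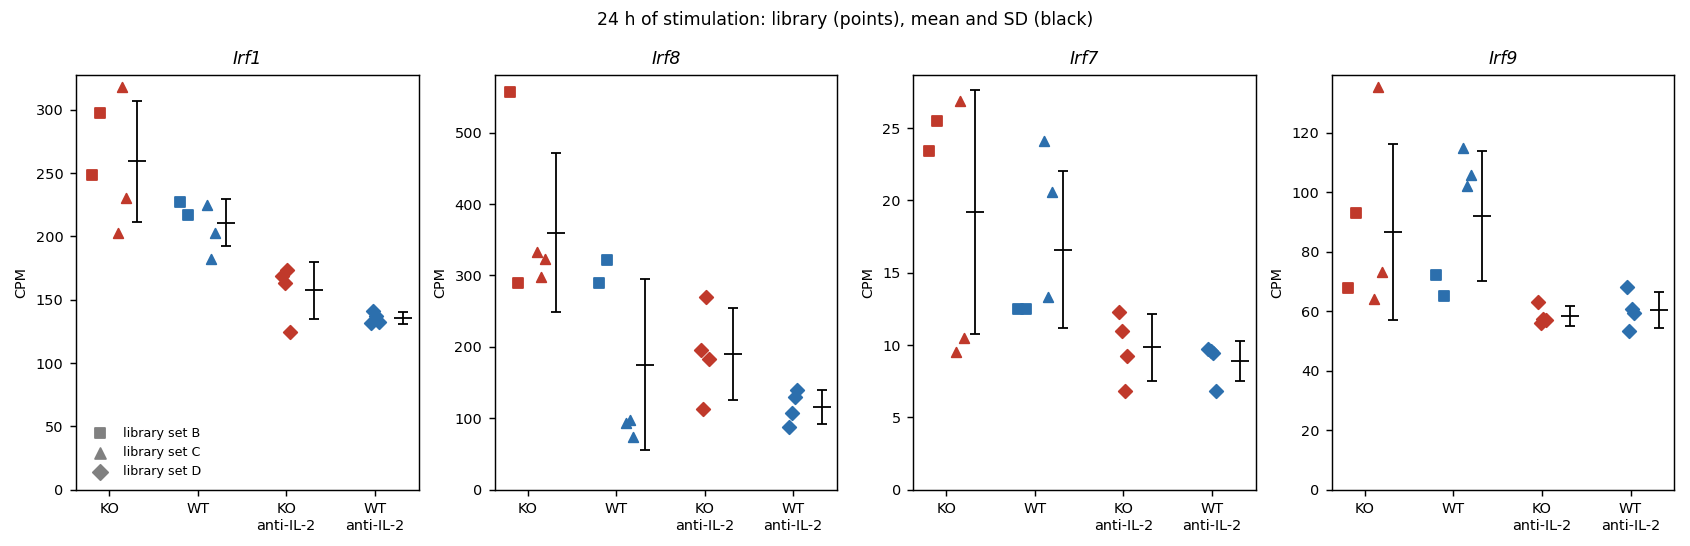
CPM (y axis) of Irf1, Irf8, Irf7 and Irf9 at 24 h is plotted by group (x axis), with a point per library shaped by library set and the mean and SD in black. Irf1 with anti-IL-2 lies at 124 to 173 in KO and 131.58 to 141 in WT cells, below all libraries without it, and WT Irf8 without anti-IL-2 splits by set.

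Irf7 and Irf9 did not pass edgeR's test with anti-IL-2 over both sets. Irf7 had 12.3, 11, 6.85 and 9.25 CPM with anti-IL-2 in KO cells, against 9.54, 26.9, 10.5, 23.4 and 25.5 CPM without. WT cells had 9.72, 9.59, 9.46 and 6.82 CPM with anti-IL-2, against 24.1, 13.3, 20.6, 12.5 and 12.5 CPM without. The KO groups overlapped and the WT groups did not. The Irf7 difference was -0.95 ± 0.32 in KO cells (adjusted p = 0.1) and -0.90 ± 0.24 in WT cells (adjusted p = 0.056). It was called without KO 24 h replicate 1 (-1.12, adjusted p = 0.049), and in WT cells without WT 24 h replicate 4 or 5 (adjusted p = 0.031 and 0.024). The Irf9 difference was -0.57 ± 0.19 in KO cells (adjusted p = 0.11) and -0.61 ± 0.17 in WT cells (adjusted p = 0.061). It was called without KO 24 h replicate 4 (-0.65, adjusted p = 0.045), and in WT cells without WT 24 h replicate 4 or 5 (adjusted p = 0.026 and 0.011). Against set C alone both were called in WT cells, Irf7 at -1.15 and Irf9 at -0.86 (adjusted p = 0.0015 and 1.9e-05), and against set B alone neither, at -0.48 and -0.18 (adjusted p = 0.16 and 0.32). Irf7 in KO cells was called against set B alone (-1.30, adjusted p = 0.0042) and not against set C alone (-0.68, adjusted p = 0.23). The DESeq2 Wald test called Irf7 in KO and WT cells (adjusted p = 0.038 and 0.0078) and Irf9 in WT cells (adjusted p = 0.01). With anti-IL-2, Irf9 ranged over 56.1 to 63.2 CPM in KO cells and 53.3 to 68.3 CPM in WT cells. Irf2, Irf3, Irf4 and Irf5 did not pass the test over both sets in either genotype. Irf2 was at -0.26 ± 0.13 in KO cells and -0.36 ± 0.15 in WT cells (adjusted p = 0.29 and 0.2). Irf3 was at -0.20 ± 0.10 in KO cells and 0.03 ± 0.14 in WT cells (adjusted p = 0.28 and 0.94). Irf5 was at 0.48 ± 0.30 in KO cells and 0.38 ± 0.35 in WT cells (adjusted p = 0.4 and 0.6). Irf4 was at 0.06 ± 0.15 in KO cells and 0.32 ± 0.15 in WT cells (adjusted p = 0.89 and 0.25). Values of Irf2, Irf4 and Irf5 depended on the set of the libraries without anti-IL-2. In WT cells, Irf2, Irf4 and Irf5 were called against set C alone, at -0.60, 0.57 and 1.01 (adjusted p = 9.8e-05, 0.00014 and 0.026). Against set B alone they were not, at 0.04, -0.01 and -0.24 (adjusted p = 0.83, 0.97 and 0.61), each with another sign. In KO cells Irf2 was called against set C alone (-0.42, adjusted p = 0.023) and not against set B alone (-0.02, adjusted p = 0.96). In all, 2 of 8 members were called lower and 0 higher with anti-IL-2 in KO cells, where 5.27% of all genes tested were called, 2.37% higher and 2.9% lower. In WT cells 1 was called lower and 0 higher, where 4.4% of all genes tested were called, 1.8% higher and 2.6% lower.

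Whether KO and WT cells responded differently was tested with interaction terms. The count was 0 of 8 members at 2 h, 6 h and 24 h and for anti-IL-2 in edgeR's test, with 0%, 0%, 0.113% and 0% of all genes called, and also 0 in the DESeq2 Wald test. At an unadjusted p under 0.05 there were 0, 1, 0 and 0 of 8. The Irf1 response at 6 h was 0.70 ± 0.19 higher on the log2 scale in KO than in WT cells (adjusted p = 0.35), or 0.52 without the 3 libraries that stood apart. The Irf8 response at 24 h was at 0.63 ± 0.48 (adjusted p = 0.65), with -0.10 in set B alone and 1.55 in set C alone (adjusted p = 1 and 0.027). The Irf4 response at 2 h was at -0.69 ± 0.34 (adjusted p = 0.45). With no filter on low counts, edgeR's test called the Irf4 response at 2 h and the Irf8 response at 24 h (adjusted p = 2.3e-07 and 0.0076). These too are not read as stronger evidence than the values with the filter.

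Among genes around the family, targets of ISRE-driven type I interferon signalling fell together with Irf7. At 2 h against 0 h, 0 of 23 were called higher and 23 lower in KO cells (median -2.72, against -0.06 over all genes tested), and 0 and 23 in WT cells (median -2.85, against -0.06). Among all genes tested, 29.2% were called lower in KO cells and 33.3% in WT cells. Lgals3bp, a secreted glycoprotein, fell by 2.00 ± 0.10 in KO cells (adjusted p = 2.5e-13) and 1.91 ± 0.08 in WT cells (adjusted p = 1.8e-18). At 24 h, 23 of 23 were called lower in KO cells (median -3.03) and 22 in WT cells (median -2.39). Among all genes tested, 30.3% were called lower at 24 h in KO cells and 30.1% in WT cells. Oas3, which makes the activator of RNase L, fell at 24 h by 3.03 ± 0.14 in KO cells (adjusted p = 5.6e-13) and 2.83 ± 0.17 in WT cells (adjusted p = 4e-11). Between genotypes 1 of these targets was called at 0 h, Rtp4, at 0.43 ± 0.10 (adjusted p = 0.04), and 1 at 24 h, Ifit3, at 1.51 ± 0.22 (adjusted p = 0.008). The list's median difference was 0.44 at 0 h and 0.35 at 24 h. Among all genes tested, 0.328% were called higher in KO cells at 0 h, 0.225% at 24 h and 0.201% under anti-IL-2. Parp14 was called between genotypes under anti-IL-2, at 0.45 ± 0.09 (adjusted p = 0.031). The RNA sensor Rigi was also higher in KO cells at 0 h, by 0.25 ± 0.06 (adjusted p = 0.031).

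Of the targets of interferon gamma and Irf1, at 2 h 3 of 21 were called higher and 10 lower in KO cells (median -0.41), and 3 and 13 in WT cells (median -0.62), where 28.4% of all genes tested were called higher and 29.2% lower in KO cells, and 30.3% higher and 33.3% lower in WT cells. At 6 h, 8 were higher and 3 lower in KO cells (median 0.65), and 5 and 9 in WT cells (median -0.36), where 23.2% of all genes tested were called higher and 23.1% lower in KO cells, and 28.5% higher and 28.2% lower in WT cells. At 24 h, 9 were higher and 2 lower in KO cells (median 0.33), and 11 and 3 in WT cells (median 0.65), where 30.5% of all genes tested were called higher and 30.3% lower in KO cells, and 29.2% higher and 30.1% lower in WT cells. The KO count called higher at 24 h is not read as apart from the share of all genes. Igtp, an interferon-induced GTPase, rose at 24 h by 1.99 ± 0.12 in KO cells (adjusted p = 1.1e-11), and Cd274, which encodes PD-L1, by 1.70 ± 0.10 in WT cells (adjusted p = 3.5e-12). Ifng itself ranged over 27 to 277 CPM in KO cells and 5.16 to 37.6 CPM in WT cells at 24 h, a log2 difference of 3.01 ± 0.63 that did not pass the test (adjusted p = 0.12). Between genotypes, 4 of 21 targets were called higher in KO cells and 0 lower at 24 h (median 0.34, against 0.00 over all genes tested), where 0.225% of all genes were called higher. Gbp5, Igtp, Iigp1 and Gbp2 were higher in KO cells by 0.60 ± 0.11, 0.54 ± 0.10, 0.89 ± 0.17 and 0.66 ± 0.13 (adjusted p = 0.026, 0.034, 0.034 and 0.036). Calls of genes outside the family, here and elsewhere, were not examined by library set or under the alternatives. Between genotypes at 24 h, calls over all genes ran from 3 to 362 over the alternatives. With anti-IL-2 in both genotypes, 7 of 20 were higher in KO cells (median 0.38), where 0.201% of all genes were, among them Gbp4 at 0.55 ± 0.07 and Igtp at 0.56 ± 0.07 (adjusted p = 0.00089 for both).

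With anti-IL-2 against none, 0 of 21 interferon gamma and Irf1 targets were called higher and 14 lower in KO cells (median -0.63, against -0.01 over all genes tested), and 0 and 12 of 20 in WT cells (median -0.68, against 0.01). Among all genes tested, 2.37% were called higher and 2.9% lower in KO cells, and 1.8% higher and 2.6% lower in WT cells. Igtp fell by 1.11 ± 0.11 in KO cells (adjusted p = 0.00012) and 1.12 ± 0.09 in WT cells (adjusted p = 0.00019). Ifng fell by 3.79 ± 0.61 in KO cells (adjusted p = 0.0048) and was at -2.22 ± 0.58 in WT cells (adjusted p = 0.05). Of 10 corepressors and inhibitors of IRF proteins or interferon signalling, 2 were called lower in KO cells and 3 in WT cells, where 2.9% and 2.6% of all genes tested were. Socs1, a feedback inhibitor of cytokine signalling, fell by 1.63 ± 0.14 in KO cells (adjusted p = 4.9e-05) and 1.67 ± 0.10 in WT cells (adjusted p = 1.2e-05). Ifngr1, a chain of the interferon gamma receptor, fell by 0.90 ± 0.21 in KO cells (adjusted p = 0.026) and 1.29 ± 0.18 in WT cells (adjusted p = 0.0032). Jak2, a kinase bound to that receptor, rose by 0.63 ± 0.11 in KO cells (adjusted p = 0.0062) and 0.51 ± 0.09 in WT cells (adjusted p = 0.0081).

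Of 10 factors upstream of Irf4 after T cell receptor stimulation, 6 were called higher at 2 h and 2 lower in KO cells (median 0.83), and 6 and 2 in WT cells (median 0.72). Among all genes tested at 2 h the shares called were 28.4% higher and 29.2% lower in KO cells and 30.3% higher and 33.3% lower in WT cells. Nfkb1, which encodes the NF-kappaB subunit p50, rose by 1.97 ± 0.12 in KO cells (adjusted p = 1.2e-11) and 2.27 ± 0.07 in WT cells (adjusted p = 1.7e-22), and Prkcq, the kinase PKC-theta, fell by 1.08 ± 0.06 in KO cells (adjusted p = 2.4e-12) and 1.23 ± 0.07 in WT cells (adjusted p = 1.7e-16). Of 12 DNA-binding partners of Irf4 and Irf8, 9 were tested at 2 h; 3 were called higher and 4 lower in KO cells, and 4 and 4 in WT cells, shares that are not read as apart from those of all genes. Bcl6, a repressor, rose by 1.96 ± 0.15 in KO cells (adjusted p = 9e-10) and 2.38 ± 0.11 in WT cells (adjusted p = 1.4e-17). Jun, an AP-1 subunit, fell by 4.61 ± 0.42 in KO cells (adjusted p = 7.8e-07) and 5.49 ± 0.29 in WT cells (adjusted p = 1.3e-09). At 24 h Jun was the 1 partner called between genotypes, higher in KO cells by 0.79 ± 0.15 (adjusted p = 0.036), where 0.225% of all genes tested were called higher. Of sensors and kinases upstream of Irf3, Irf5 and Irf7, 1 of 19 was called higher and 11 lower at 24 h in KO cells, and 1 and 12 of 18 in WT cells. At 24 h 30.5% of all genes tested were called higher and 30.3% lower in KO cells, and 29.2% higher and 30.1% lower in WT cells. Rigi, an RNA sensor, fell by 2.38 ± 0.17 in KO cells (adjusted p = 4.5e-10) and 1.85 ± 0.19 in WT cells (adjusted p = 1.5e-07).

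Across the means of the 10 groups, Irf7 and Irf9 were the most alike members (Pearson's r of mean log2 CPM of 0.92), and Irf7 and Irf8 (r = -0.94) and Irf5 and Irf9 (r = -0.94) the most opposed. Among the 9345 genes that averaged 4 CPM or more, those most like Irf1 were Tap1 (r = 0.967), Dtx3l and Parp14. For Irf4 they were Tnfsf11 (r = 0.993), Uba6 and Cd83, and for Irf8 Prkar2a (r = 0.99), Hsp90b1 and Ino80e. For Irf7 they were Abhd16a (r = 0.996), Ulk3 and Elf4, and for Irf9 Mfng (r = 0.991), Fam102a and Gimap8. Irf2 was most like Patj (r = 0.987), Irf3 like Zkscan14 (r = 0.982) and Irf5 like Smarca5 (r = 0.982). These are descriptions over 10 groups that share their stimulation times and library sets, with no test.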

How the data were processed

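The members and the gene lists were chosen with earlier results of these data known. The deposited values are raw counts of reads per Ensembl gene for 60 libraries. Per the submitters' processing notes, the tools included STAR 2.7.9a, Picard 2.42.2 and featureCounts 2.0.1 of Subread, and the build GRCm39; whether counting used strand is not given in the sources used here. Gene names came from GENCODE M21, which named 52081 of the 55414 rows, holding 99.6% of the counts. RNA was isolated with either of 2 kits, per the labels, without saying which library had which. The median library held 17994613 counts, and no pair of libraries in a group agreed within sampling noise.

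Counts were tested with edgeR 4.0.16 in R 4.3.3 (TMM scaling, filterByExpr with a minimum count of 10, quasi-likelihood F test), and p-values were adjusted by Benjamini-Hochberg over every gene tested in each of 19 comparisons. A call is an adjusted p under 0.05. Library set was a term where the groups shared sets. All 8 members passed the filter in every comparison. CPM use the TMM factors, and levels per kilobase use GENCODE M21 exon lengths. The edgeR step was tested on simulated data. Alternatives were the DESeq2 1.42.0 Wald test and size factors, limma 3.58.1 voom with sample weights, no filter, a 1.5-fold minimum, no library set term, single sets, a replicate block, leaving out single libraries, and leaving out the 3 KO libraries that stood apart.

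The genes named are all members; from each list, called genes of smallest adjusted p; and the 3 genes of highest correlation with a member. Some genes under this rule are not reported here. Promoters are RefSeq's for GRCm38.p6, another build than that of the counts, and no coordinates were converted.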

Additional observations from a re-analysis of the deposited data

Results flagged for a closer look

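Of 64 combinations of a member and a group of 4 or 5 libraries, 8 had a library far from the others of its group; chance gives about 1 in 20. Irf1 was at 358 CPM in KO 2 h replicate 3, against 200 to 231 CPM in the others. Irf8 was at 556 CPM in KO 24 h replicate 4, against 289 to 334 CPM, and at 32.7 CPM in WT 2 h replicate 1, against 18.1 to 20.9 CPM. Irf9 was at 179 CPM in KO 6 h replicate 5, against 105 to 121 CPM, and at 114 CPM in WT 6 h replicate 1, against 94.8 to 99.9 CPM. WT 2 h replicate 5 had the highest Irf3 of its group, 120 CPM against 95.5 to 97.5 CPM, and the lowest Irf4, 582 CPM against 826 to 891 CPM. Irf7 was at 6.82 CPM in WT 24 h anti-IL-2 replicate 4, against 9.46 to 9.72 CPM in the others. The causes were not tested.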

How the results depend on the processing

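Of 45 results on a member that passed the test, 30 passed it in every alternative run, and 0 reversed. Of 107 that did not pass, 43 had another sign in at least 1 alternative. The number of members called moved by over 1.5 times as follows. With no filter on low counts it was 2 for KO against WT at 0 h and 2 at 24 h, 1 for KO 6 h against 2 h, 1 and 3 for anti-IL-2 in KO and WT cells, and 1 and 1 for the interactions at 2 h and 24 h. The DESeq2 Wald test gave 1, 1 and 1 for KO against WT at 0 h, 6 h and 24 h, and 3 for anti-IL-2 in WT cells. Set B alone gave 1 for KO against WT at 0 h and 2 for anti-IL-2 in WT cells. Set C alone gave 1 for KO against WT at 24 h, 1 for the interaction at 24 h and 6 for anti-IL-2 in WT cells. A 1.5-fold minimum left 4 in KO cells at 2 h and 4 in WT cells at 6 h, against 0 h. Leaving out 1 library gave 0 to 1 for KO against WT at 24 h, 1 to 3 for KO 6 h against 2 h, 0 to 3 for anti-IL-2 in KO cells and 1 to 3 in WT cells. Leaving out the 3 KO libraries that stood apart, which was chosen after seeing the data, gave 4 for KO 6 h against 2 h. Calls over all genes moved as well, with their ranges in the next paragraph, so no count here is read as particular to the family. The cause of these moves was not tested.

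Library names 10 apart in set A could mark a shared source, but the labels do not say so. Deviations of libraries so numbered correlated at -0.01 to 0.59, and not above 0.1 in every pair, the condition set for pairing. As a hint from the data that the numbers may share a source, 25 of 30 correlated best with their own number. With the numbers as a replicate block, 8 members were called in KO cells at 2 h against 0 h, 6 at 6 h against 0 h and 3 at 6 h against 2 h, and 7, 7 and 2 in WT cells. The calls gained in KO cells were Irf3 at 2 h (adjusted p = 0.041), Irf5 at 6 h (adjusted p = 0.015) and Irf1 for 6 h against 2 h (adjusted p = 0.0041). Calls over all genes varied more, given here with the range over the alternatives. KO against WT had 81 (6 to 477) at 0 h, 8 (3 to 230) at 2 h, 4 (3 to 28) at 6 h, 48 (3 to 362) at 24 h and 47 (10 to 191) under anti-IL-2. Anti-IL-2 against none had 721 (264 to 1616) in KO cells and 584 (145 to 3857) in WT cells. The interactions had 0 (0 to 259) at 2 h, 0 (0 to 4) at 6 h, 17 (0 to 233) at 24 h and 0 (0 to 16) for anti-IL-2. Irf5 rests on few reads, which limits its precision.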

Other observations

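KO 0 h replicate 10, KO 2 h replicate 3 and KO 6 h replicate 3, the 3 libraries that stood apart, had the highest Irf8 of their groups, at 9.24, 43.5 and 259 CPM.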
